A study of Mus musculus with 2 samples.

Results

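The cells described here are the YFP+ macrophages of the mouse sciatic nerve, captured as 1 single-cell RNA-seq library. They came from the nerves of 19 male mice of 10–12 weeks, pooled before the sort, whose genotype is given by the study as Flt3-Cre crossed to LSL-YFP fl/fl. The sort used CD64 and intermediate CD45, and YFP marks cells with a history of Flt3-driven Cre in hematopoietic progenitors. A second library holds the YFP- macrophages of the same pool of 19 mice, with the same genotype and age. A cell is a barcode with at least 500 UMIs (counted RNA molecules) and at least 200 genes, which gave 4053 YFP+ cells of 5098 cells in both libraries together and 1045 YFP- cells. With 1 library for each sort and all mice pooled, there is no replicate, and every interval below is a 95% interval that covers counting error only.

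Macrophages live along the fibers of peripheral nerves, where they take up debris, present antigen and exchange signals with Schwann cells, the glia that wrap axons. Some tissue macrophages are laid down before birth and maintain themselves, and others descend from hematopoietic stem cells of the bone marrow through monocytes. Flt3 is switched on in multipotent progenitors, so a Flt3-driven Cre leaves a lasting mark on their descendants. By the paper's account, the strain marks fetal monocyte progeny as well as that of adult stem cells. An unmarked cell can also be one in which recombination failed.

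The labelled cell type was present in the counts. All 12 macrophage markers of the list used were detected, with Lyz2, the lysozyme of myeloid cells, as the most abundant at 12424 CPM (UMIs of a gene per 1000000 UMIs). C1qa, a chain of the complement component C1q, stood at 6101 CPM (6042–6160). Csf1r, the receptor for the growth factor that keeps macrophages alive, stood at 873 CPM (851–896). Fcgr1, which encodes the CD64 protein used in the sort, was measured at 111 CPM (103–119) and Ptprc, which encodes CD45, at 241 CPM (230–253). Transcripts of Flt3 itself were scarce, with 72 UMIs over all cells. Of 8 monocyte markers none reached 3 UMIs, and Ly6c2, Chil3, Vcan, F10 and Treml4 were at 0. Xist, the RNA of the inactive X chromosome in females, was at 0, which allows up to 0.445 CPM, and the Y-linked Ddx3y was at 78.1 CPM.

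The library held 9365598 UMIs on 187104 barcodes, and 6747554 of them (72.0%) fell in the 4053 cells. The median cell had 1484 UMIs and 774 genes, and the 10th and 90th percentiles were 671 and 2808 UMIs. Mitochondrial RNA was a median 0.999% of UMIs, and 32 cells exceeded 5%. The limit of 500 UMIs did not fall in a gap between cells and empty droplets: 122 barcodes lay less than 50 UMIs under it, with a median of 320 genes, and 120 lay less than 50 UMIs above it, with a median of 344.5 genes. The YFP- cells were deeper, with a median of 2233 UMIs. The libraries shared 7 cell barcodes, against 5.74 from independent draws of the barcode set of the kit.

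A few genes made up much of the RNA. The 25 most abundant of them held 25.7% of all UMIs in cells and the first 10 held 17.1%, while 1302 genes stood above 100 CPM. Malat1, a nuclear noncoding RNA, came first at 42398 CPM (42243–42554). Cd74, the invariant chain that escorts MHC class II, followed at 29333 CPM (29204–29462), and the class II chains H2-Ab1, H2-Aa and H2-Eb1 were at 8588, 7854 and 7415 CPM. Apoe, a lipid carrier, came next at 21402 CPM (21291–21512). Tmsb4x and Actb, which encode an actin-binding peptide and beta-actin, stood at 16714 and 10647 CPM. The ferritin chains Ftl1 and Fth1, which store iron, stood at 9991 and 5979 CPM, and the protease inhibitor Cst3 at 7888 CPM. C1qb and C1qc, the partner chains of C1qa, were at 5906 and 5023 CPM, and Selenop, a selenium carrier of resident macrophages, at 4398 CPM. Another 9 of the 25 were ribosomal genes, of which Rps29 was highest at 11784 CPM. These are counts of molecules read at their 3' ends, so they can be compared between genes without a length correction, although families with near-identical copies, such as ribosomal genes and their pseudogenes, can lose reads in mapping.

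**Figure D1:**
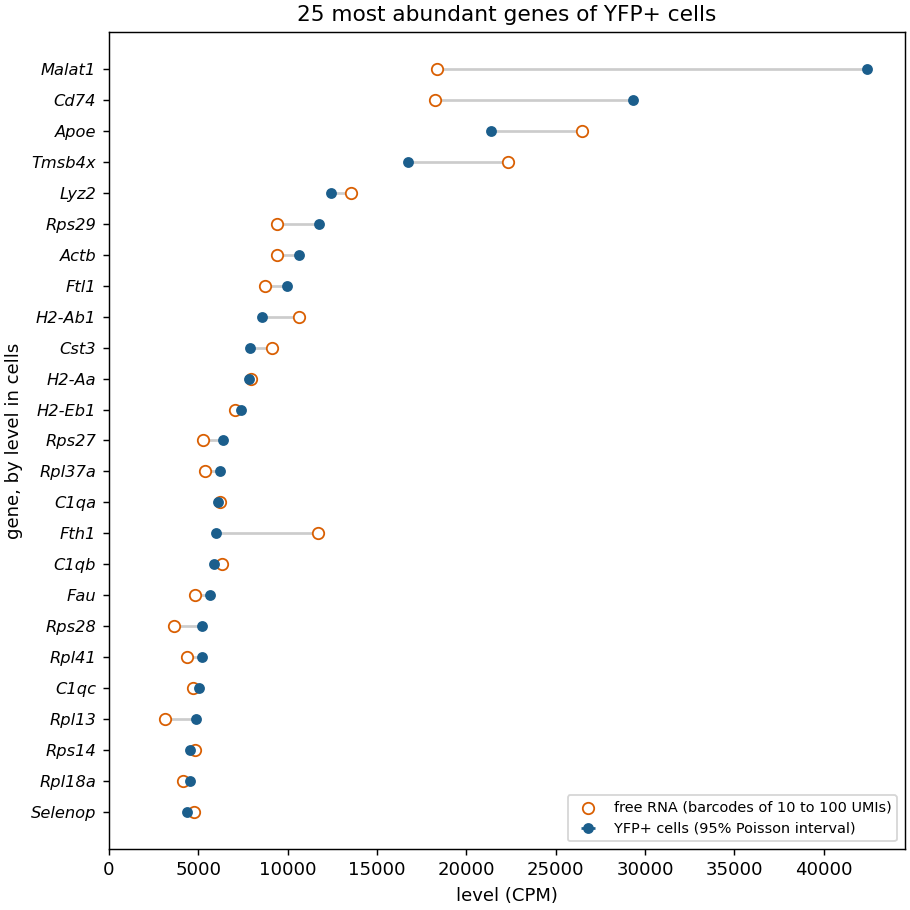
The 25 most abundant genes of YFP+ cells by level (x axis, CPM), with filled points for the 4053 cells with 95% Poisson intervals, which are narrower than most points, and open points for free RNA in barcodes of 10 to 100 UMIs. Malat1 and Cd74 were higher in cells than in free RNA, and Fth1, Apoe and Tmsb4x were lower.

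RNA outside cells was read from 85373 barcodes with 10 to 100 UMIs. Malat1 was 1.21 log2 units higher in cells than in this free RNA, and Cd74 was 0.68 higher. The ferritin gene Fth1 was lower in cells, at a log2 ratio of -0.97. C1qa had nearly equal levels in both (log2 ratio -0.03), so its UMIs alone do not separate a cell from a droplet with free macrophage RNA. Of 1492 genes with at least 100 CPM in cells or in free RNA, the 10 lowest ratios were those of Mbp, Drp2, Fxyd7, S100b, Gpm6b, Mt3, Prx, Sncg, Ndrg1 and Cryab. Mbp, a protein of compact myelin, was at 165 CPM in cells and 2835 CPM in free RNA (log2 ratio -4.09). Drp2 and Prx, which act in the Schwann cell membrane, had log2 ratios of -3.91 and -3.31, and S100b, a Schwann cell calcium-binding protein, had -3.64. At the other end, Gm43305 (2.86), Arhgap31 (1.76), Adap2 (1.59) and AC154912.1 (1.55) had the highest log2 ratios of cells over free RNA.

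Some other cell types left almost no RNA in these cells, while Ighm and Schwann cell genes were plainly present. T cell, NK cell, mast cell and red cell lists summed to under 1 CPM each, where T cell markers gave 0.889 CPM through Cd3d alone. Of 5 neutrophil markers only Csf3r was seen, at 11.7 CPM. Ighm, an immunoglobulin heavy chain, was measured at 326 CPM (312–340). Of the other B cell markers, Cd79b, a part of the B cell receptor, was at 53.8 CPM in cells and 66.9 CPM in free RNA, and Cd79a and Ms4a1 were at 0. The 8 Schwann cell markers summed to 656 CPM in cells, 5285 CPM in free RNA and 16302 CPM in a cluster of 91 cells led by Myh11, described further down, and fibroblast and mural cell RNA was also concentrated there.

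By the variance of Pearson residuals, cells differed most in Retnla. This measure is near 1 when counting noise alone separates cells of unequal depth. The median gene had 1.05, and 156 of 11120 genes exceeded 2. Retnla, a secreted protein of the resistin family induced by type 2 cytokines (chromosome 16, 48842551 to 48844461, plus strand, GRCm38), had the highest residual variance, 31.9. It was at 0 in 3258 cells (80.4%) and reached 149 UMIs in 1 cell, and the 10% of cells with the highest share held 94.5% of its UMIs. Its level was 1043 CPM in cells and 1725 CPM in free RNA. Actb had 18.7, although it is a gene that nearly every cell carried: its 10th percentile over cells was 1631 CPM, its median 6869 CPM and its 90th percentile 31484 CPM. Apoe (14.2), Malat1 (11.6), Cd74 (10.0) and H2-Ab1 (5.98) were also among the 25 most variable genes. A ranking by coefficient of variation beyond counting noise kept 5 of these 25, and Retnla, Actb, Apoe, Malat1, Cd74 and H2-Ab1 left the list.

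The other variable genes fell into a few kinds. Chemokines were represented by Cxcl2 (14.8), which draws neutrophils, by Ccl4 (11.5) and by Ccl12 (6.30). Cxcl2 was at 0 in 3659 cells and reached 125 UMIs in 1 cell. The chaperone Hspa1a had a residual variance of 10.0, and Fos and Jun, which form the AP-1 factor, had 6.13 and 5.30. The mitochondrial ribosomal RNA mt-Rnr2 had 7.56. Genes of nerve and vessel wall made up the rest: the myelin genes Pmp22 (14.8) and Mbp (12.3), the matrix genes Sparc (10.3), Igfbp7 (9.37) and Dcn (5.54), the contractile genes Acta2 (8.11), Tagln (7.68) and Myl9 (6.78), and Cryab (8.70), Mt3 (7.07) and Mt2 (5.35). Without the 91 cells of the Myh11 cluster, 13 of the 25 genes stayed on the list, and 12 left it, among them Acta2, Cryab, Dcn, Igfbp7, Mbp, Mt2, Mt3, Myl9, Pmp22, Sparc and Tagln. In the YFP- library, 19 of the 25 genes were again among the 25 most variable.

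**Figure D2:**
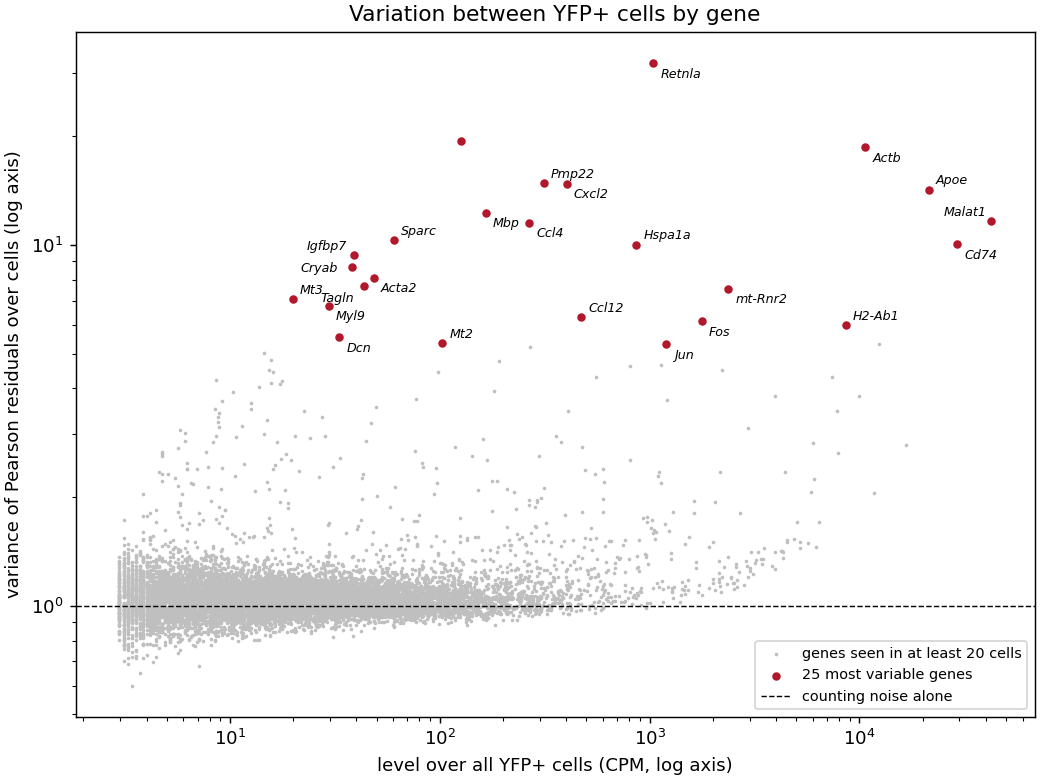
Variance of Pearson residuals over YFP+ cells (y axis, log scale) against level (x axis, CPM, log scale), 1 point for each gene seen in at least 20 cells, with the 25 most variable in red, most of them labelled, and a dashed line at 1, the value for counting noise alone. Retnla stood highest at 31.9, and Malat1, Cd74, Apoe and Actb were both abundant and variable.

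Depth moved with some of these levels. Cells were ranked by UMIs and cut into 4 equal groups. In the group with the fewest UMIs (500 to 916), Actb was at 20232 CPM and Malat1 at 57397 CPM, and in the group with the most (2228 to 9604) they were at 7720 and 34937 CPM. C1qa moved less, from 5312 to 6117 CPM, as did Ccr2, from 306 to 285 CPM. The part of depth in the variation of Actb and Malat1 was not tested.

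Clustering of the 4053 cells gave 10 clusters, numbered by size from 828 to 57 cells. The clusters were defined from the same counts, so the levels of their leading genes are a description with no test. Names were given only where a list of markers led a cluster. A Ccr2 S100a4-like cluster (cluster 4) held 556 cells (13.7%, 12.7–14.8, exact binomial), a Cd209-high-like cluster (8) held 88 (2.17%), an interferon-responding-like cluster (9) held 70 (1.73%) and a cycling-like cluster (10) held 57 (1.41%). The others are called by number or leading genes. These shares moved with the settings of the clustering, the Ccr2 S100a4-like share between 7.80% and 19.3%, the Cd209-high-like share between 1.46% and 18.5% (the latter with another seed, where a further cluster of 681 cells took the name at a mean log2 ratio of 0.51) and the interferon-responding-like share up to 4.91% with that seed, and no interferon-responding-like cluster was named at resolution 0.4, with 10 principal components or from half-size counts. C1qa lay between 4949 and 7022 CPM in 9 of the 10 clusters and at 3432 CPM in cluster 7. Cluster shares also differed with depth. From the group with the fewest UMIs to that with the most, cluster 4 went from 5.53% to 20.4% of cells and cluster 5 from 6.82% to 24.0%. Cluster 2 went from 35.4% to 6.80% and cluster 6 from 18.7% to 1.08%. The part of depth in these shares was not tested.

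**Figure D3:**
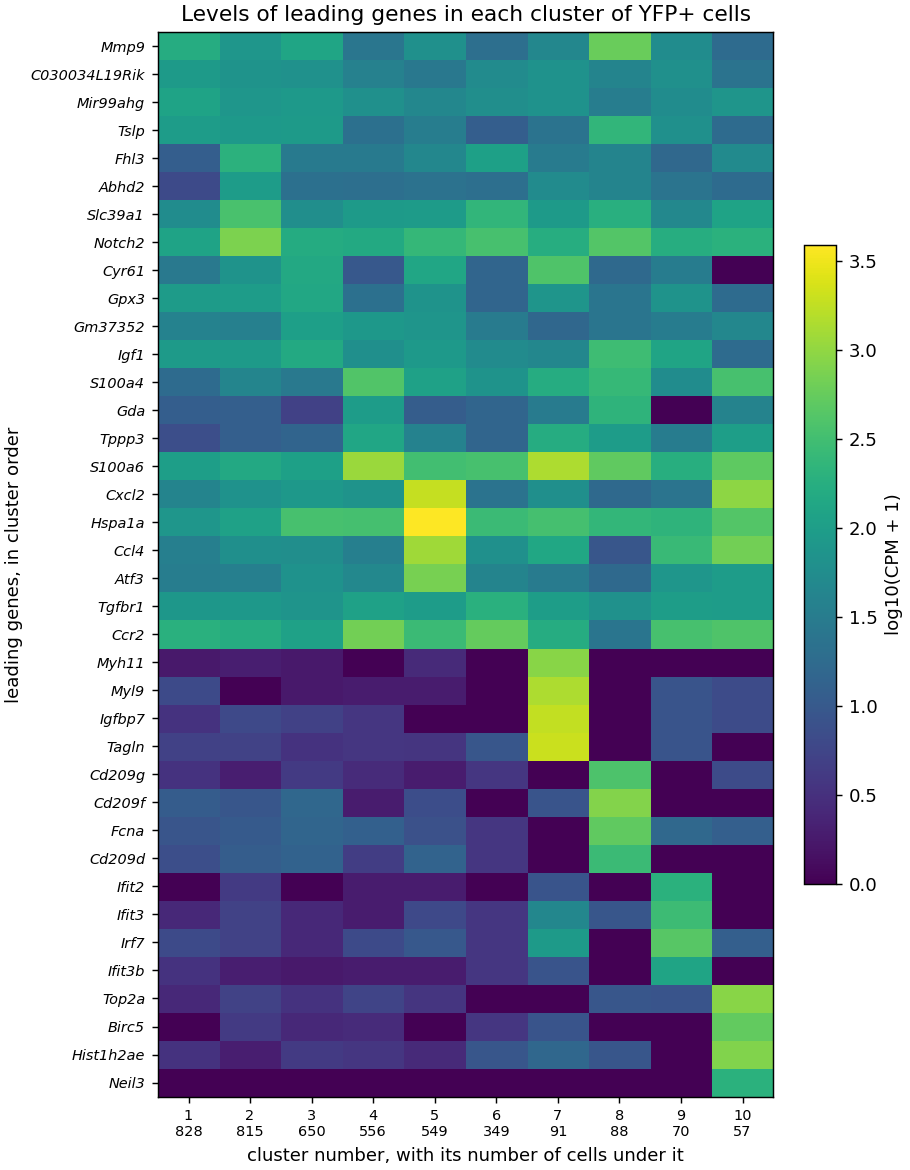
Level of the first 4 leading genes of each cluster of YFP+ cells (rows, in cluster order) in all 10 clusters (columns, with the number of cells), as log10 of CPM plus 1. Clusters 7 to 10 had leading genes close to 0 in the other clusters, whereas those of clusters 1, 3 and 6 were present in every large cluster.

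Cluster 5 (549 cells, 13.5%) was led by Cxcl2 and Hspa1a and held RNA of inflammatory cytokines, immediate-early genes and heat shock genes. Hspa1a was found in 85.8% of its cells, Cxcl2 in 37.7% and Ccl4 in 29.9%. With a minimum of 1000 UMIs, separate immediate-early and inflammatory cytokine clusters of 421 and 288 cells were named instead, and the share of clusters named for these 3 programmes lay between 5.13% and 24.7% in the settings where any was. Cxcl2 was at 1914 CPM here, where the remaining YFP+ cells had 87.6 CPM (log2 ratio 4.43, 4.29–4.58). Ccl4 and Ccl3, chemokines of inflammation, were at 1193 and 939 CPM against 73.6 and 130 CPM. Il1b, the gene of interleukin-1 beta, was at 99.8 CPM against 3.76 CPM (log2 ratio 4.40, 3.83–4.99), and Tnf at 70.6 CPM against 14.5 CPM. All 12 immediate-early genes, the transcripts made within minutes of a stimulus, were at least 2-fold higher, where 1.84% of 2602 genes were. Fos was at 4969 CPM against 1106 CPM, Jun at 3617 against 702 CPM, and Atf3, a stress-induced repressor, at 712 against 46.2 CPM. Of the 8 listed heat shock genes, Hsph1 was under 50 CPM over all cells and not counted, and 5 of the remaining 7 were at least 2-fold higher: Hspa1a, Hspa1b, Hsp90aa1, Hspa8 and Dnajb1. Hspa1a was at 3899 CPM against 235 CPM (log2 ratio 4.05, 3.96–4.14), and Hspa1b, a near-identical copy between which reads may be split, at 616 against 54.6 CPM. Cd74 was nearly level, at 31632 against 28854 CPM (log2 ratio 0.13). Immediate-early and heat shock genes are also known to rise while tissue is dissociated, and the part of that step was not tested.

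The start regions of some of these genes hold the letters bound by known factors. Heat shock factor binds units of GAA that alternate with TTC. GAA, TTC and GAA, each 2 bases from the next, were found in either direction in 0.603% of 32851 RefSeq promoters (250 bases before to 50 after a start, GRCm38.p6), and in at least 1 promoter of 0.662% of 27025 genes. They were found for 3 of the 6 heat shock genes in the table, Hspe1, Hspd1 and Hsph1, whose log2 ratios in cluster 5 were 0.35, 0.51 and 1.53. Hspa1a and Hspa1b were not among the genes with a match. Only 6 of the 8 listed genes had a promoter in the table, so a gene without a match may not have been searched. NF-kappa-B binds GGG and TTTCC with 2 bases between them, found in either direction in 1.63% of promoters, for 1.89% of genes and for 3 of 10 inflammatory genes, Cxcl1, Cxcl2 and Tnfaip3. The stretches below are shown because Hspe1 and Hspd1 share 1 start region on chromosome 1 (55088044 to 55088091, plus strand as printed) and because Cxcl2 leads the cluster (chromosome 5, 90903787 to 90903845, plus strand) beside its relative Cxcl1 (chromosome 5, 90891141 to 90891198, plus strand). Capitals mark the matches in either direction, of which a stretch can hold several that overlap.
Hspe1: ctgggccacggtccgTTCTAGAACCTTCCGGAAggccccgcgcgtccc
Cxcl2: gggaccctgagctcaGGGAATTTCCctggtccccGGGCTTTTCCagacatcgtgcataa
Cxcl1: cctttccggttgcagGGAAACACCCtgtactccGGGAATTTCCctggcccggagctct

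Cluster 4 was led by S100a4, a calcium-binding protein of motile cells, at 409 CPM, with 67.1 CPM in the remaining cells (log2 ratio 2.59, 2.39–2.79). Its relatives S100a6 and S100a10 were at 1130 and 645 CPM against 226 and 263 CPM. Ccr2, the chemokine receptor by which monocytes leave the marrow, was at 668 CPM against 216 CPM (log2 ratio 1.62, 1.49–1.76). The membrane-binding Anxa2 and the intermediate filament Vim were at 154 and 593 CPM, against 33.4 and 244 CPM, and the lectin Lgals3 was higher by 2.24 log2 units. In all, 6 of 10 list genes measured were at least 2-fold higher, where 0.423% of all genes were. Retnla was also higher, at 2161 CPM against 818 CPM. Lower levels were seen for Lyve1, a hyaluronan receptor of resident macrophages, at 137 against 249 CPM, for the mannose receptor Mrc1, at 620 against 949 CPM, and for Ccl2, Ccl7 and Ccl12, of which Ccl12 had a log2 ratio of -2.41 (-2.69 to -2.15). Folr2, a folate receptor of resident macrophages, was at 309 against 282 CPM (log2 ratio 0.13, -0.04–0.30).

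Among the 4 remaining large clusters, the highest log2 ratio was 1.05 in cluster 1, 2.55 in cluster 2, 1.26 in cluster 3 and 1.12 in cluster 6. Cluster 1 (828 cells) was led by Mmp9, a matrix protease (166 against 79.6 CPM), with Stab1, a scavenger receptor, at 807 against 497 CPM, Apoe at 28469 against 19744 CPM and Actb at 4432 against 12105 CPM. Cluster 2 (815 cells, median 999 UMIs) had Actb at 25265 against 8195 CPM, together with Notch2 at 756 against 185 CPM, the zinc transporter Slc39a1 at 358 against 86.4 CPM and Fhl3 at 203 against 33.7 CPM. The gamma-actin gene Actg1 did not share this, at 676 against 1021 CPM, and Tmsb4x, which encodes the actin-binding peptide, was at 17695 against 16549 CPM. Cluster 3 (650 cells) had Cyr61 at 145 against 60.0 CPM, the antioxidant enzyme Gpx3 at 143 against 62.9 CPM, the growth factor Igf1 at 151 against 81.7 CPM and Lyve1 at 332 against 207 CPM. Cluster 6 (349 cells) was the shallowest, with a median of 880 UMIs. There Ccr2 was at 552 against 277 CPM and Tgfbr1, a receptor for TGF-beta, at 189 against 86.9 CPM, while Lyve1 was at 41.2 against 241 CPM and Folr2 at 57.7 against 299 CPM. The Ccr2 S100a4 list as a whole did not follow Ccr2. Its mean log2 ratio was -0.24 with 4 of 11 genes raised, and S100a10 was at least 2-fold lower.

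The Cd209-high-like cluster 8 held 88 cells with the lectins Cd209f and Cd209g at 828 and 386 CPM, where the remaining cells had 7.40 and 1.96 CPM. Reads of this lectin family can be split between near-identical copies. Retnla was at 15665 CPM against 768 CPM (log2 ratio 4.35, 4.27–4.42), and these 88 cells held 1949 of its 7035 UMIs. Fcna, a ficolin of the lectin pathway of complement, was at 514 CPM against 9.51 CPM, and the chemokine Ccl8 at 330 against 9.81 CPM. Receptors of resident macrophages were high as well, with Lyve1 at 940 against 217 CPM, Folr2 at 916 against 275 CPM and Timd4, a receptor for phosphatidylserine, at 121 against 24.0 CPM. Ccr2 had 3 UMIs in this cluster, a level of 24.1 CPM (4.97–70.5) against 297 CPM. Other genes of the Ccr2 S100a4 list went both ways here, with S100a4 at 257 against 122 CPM, S100a10 at 772 against 318 CPM, Crip1 at 4429 against 2165 CPM and Ahnak at 932 against 366 CPM, whereas Lsp1 was at 96.4 against 299 CPM. MHC class II was lower, with Cd74 at 16131 against 29581 CPM.

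The interferon-responding-like cluster 9 held 70 cells. Irf7, the factor that amplifies interferon production, was at 455 CPM, where the remaining cells had 6.65 CPM (log2 ratio 5.90, 5.35–6.44). Isg15, a ubiquitin-like modifier, was at 439 against 10.1 CPM, and Ifit2 and Ifit3 were at 193 and 285 CPM against 0.907 and 3.48 CPM. Reads of Ifit3 and its copy Ifit3b may be split between them. Rsad2, an antiviral enzyme, had 18 UMIs here, or 139 CPM against 1.81 CPM. B2m, the light chain of MHC class I, was at 3605 against 1979 CPM, and Fcgr1 at 285 against 108 CPM. A pair of GAAA units 2 bases apart, the core of the interferon-stimulated response element, was found in either direction in 3.44% of the 32851 promoters, for 3.99% of the 27025 genes and for 6 of 9 list genes in the table. Stretches of 3 of these 6 are given, for Isg15 (chromosome 4, 156200860 to 156200911, minus strand), Ifit3 (chromosome 19, 34583358 to 34583397, plus strand) and Rsad2 (chromosome 12, 26456548 to 26456587, minus strand), because these genes mark the cluster, and capitals mark the matches in either direction.
Isg15: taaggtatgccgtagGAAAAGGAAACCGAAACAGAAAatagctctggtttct
Ifit3: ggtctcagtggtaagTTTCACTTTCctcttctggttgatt
Rsad2: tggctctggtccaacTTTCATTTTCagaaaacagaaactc

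The cycling-like cluster 10 held 57 cells with a median of 3087 UMIs, and 9 of the 41 cells in the top 1% by UMIs. Top2a, which untangles replicated DNA, was at 907 CPM against 2.89 CPM, Mki67, the proliferation marker, at 516 against 1.83 CPM, and Birc5, a factor of chromosome segregation, at 527 against 1.37 CPM. Pcna, the sliding clamp of DNA polymerase, was at 300.4 against 37.9 CPM, so that genes of DNA synthesis and of mitosis were both present. S100a4 was at 346 against 118 CPM and Ccr2 at 397 against 289 CPM. Ccl4 was at 663 against 256 CPM and found in 31.6% of cells, while Ccl3 was level at 266 against 270 CPM. The inflammatory cytokine list summed to 2086 CPM here and 4460 CPM in cluster 5. Apoe and Cd74 were lower, at 10011 and 15022 CPM, against 21707 and 29717 CPM. The doublet caller Scrublet marked 0 cells of this library, and the part of doublets in the depth of these cells was not tested.

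Cluster 7, led by Myh11, held 91 cells with RNA of several cell types of the nerve. The smooth muscle genes Acta2 and Tagln were at 2221 and 2034 CPM, where the remaining cells had 4.38 and 3.33 CPM, and Myh11, a smooth muscle myosin, was at 905 CPM against 0.756 CPM. Mbp was at 3851 against 90.9 CPM, and Dcn, a proteoglycan of fibroblasts, was at 1159 against 10.4 CPM. Within the cluster, 15.4% of cells carried Acta2 and 64.8% Mbp. With 10 principal components, 53 of its cells fell in a Schwann cell-like cluster of 54 and 30 in a mural cell-like cluster of 32. Macrophage RNA was lower but not absent, with C1qa at 3432 against 6155 CPM and Lyz2 at 6536 against 12543 CPM. With each cell thinned to 1000 UMIs, 67.4% (51.5–80.9) of its 43 cells deep enough carried C1qa, against 98.9% (98.4–99.2) of all 2869 such cells, while 1184 shallower cells were left out. Before thinning, 97.2% of cells carried it. Whether these droplets held macrophages with other RNA or other cells with macrophage RNA was not tested.

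**Figure D4:**
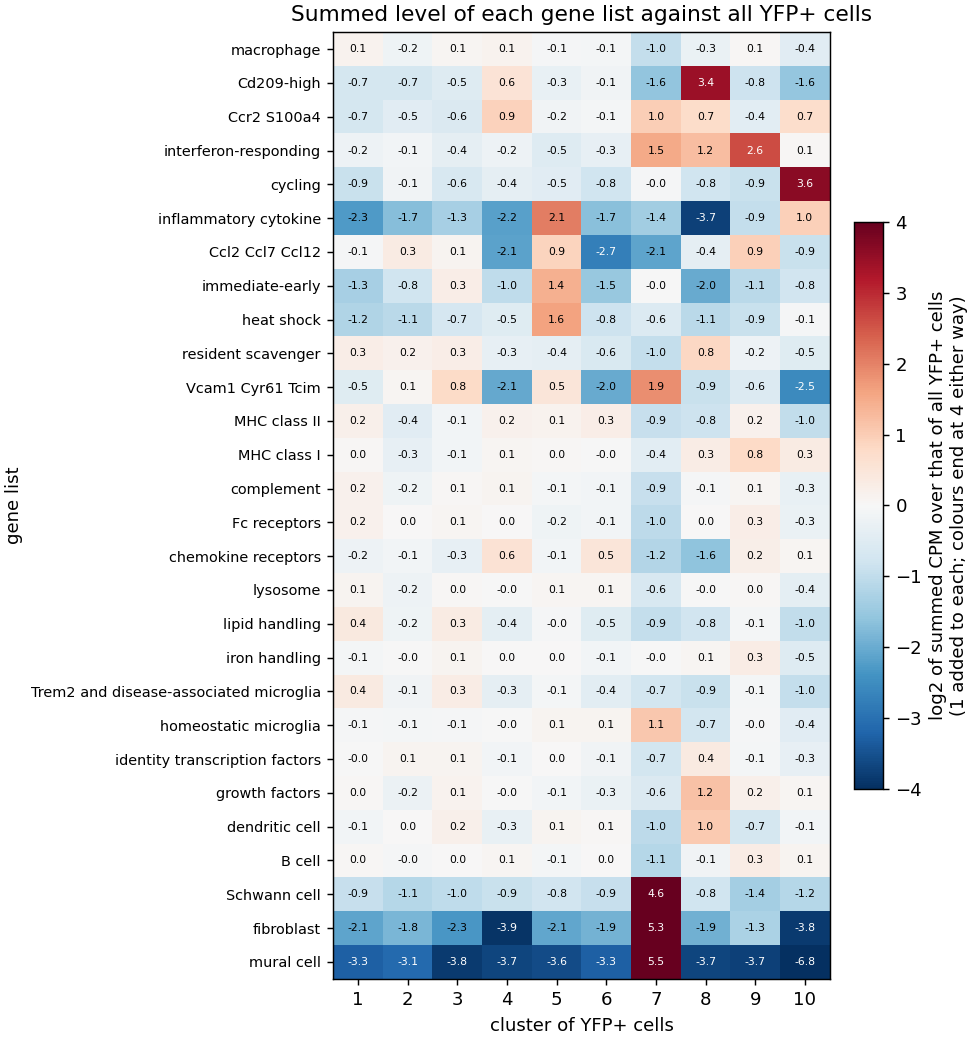
Summed level of each gene list (rows) in each cluster of YFP+ cells (columns), as log2 of its ratio to the summed level in all YFP+ cells, with blue for lower and red for higher. The Schwann cell, fibroblast and mural cell lists were high in cluster 7, and the inflammatory cytokine, immediate-early and heat shock lists were highest in cluster 5.

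Lists of macrophage functions varied to different degrees over the clusters. Complement genes summed to between 15130 and 20526 CPM in the 9 clusters other than cluster 7, and lysosome genes to between 11252 and 16012 CPM. In cluster 7 these lists summed to 9616 and 9504 CPM. Over all 10 clusters, MHC class II genes ranged from 27363 CPM in cluster 10, 28543 CPM in cluster 7 and 30711 CPM in cluster 8 to 65446 CPM in cluster 6. Lipid handling genes, most of whose UMIs are Apoe, ranged from 11757 CPM in cluster 10 to 30356 CPM in cluster 1, and resident scavenger genes from 7306 CPM in cluster 7 and 9211 CPM in cluster 6 to 24836 CPM in cluster 8.

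The leading genes were also read in UMIs that had no part in the clustering. All UMIs were split at random into equal parts, cells were clustered on one of them, and levels were taken from the other. The 8 clusters found included those led by S100a4, Cxcl2, Cd209f, Myh11 and Hist1h2ae, and no interferon-responding cluster. In the held-out UMIs, the log2 ratio of Cxcl2 was 4.08 (4.26 in the UMIs used), of S100a4 1.79 (2.44), of Cd209f 6.56 (7.44), of Myh11 8.96 (9.61) and of Hist1h2ae 7.21 (8.30). The median log2 ratio of the first 8 leading genes was 0.51 in the largest cluster of this split and 3.78 in the one led by Cxcl2. Half-size counts of the same cells are not replicates, so these values describe how far counting noise entered the choice of genes.

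Against the YFP- library, most listed genes lay close to equal. Of 5531 genes with a mean of at least 20 CPM, 1.54% were at least 1.5-fold higher in YFP+ cells and 5.77% at least 1.5-fold lower, and the median log2 ratio was -0.002. Among 144 genes of the lists of macrophage states and programmes, 7 were that much higher and 7 that much lower. With equal weight for each cell, these counts were 7 and 11 of 147 genes, where 2.04% and 6.58% of all genes were as far higher and lower. S100a4 stood at 124 CPM here and 45.5 CPM among YFP- cells (log2 ratio 1.43, 1.15–1.72), S100a6 at 377 and 159 CPM, and Ccr2 at 292 and 124 CPM (1.23, 1.05–1.40). After thinning to 1000 UMIs, 19.3% (17.9–20.8) of YFP+ cells and 7.04% (5.45–8.92) of YFP- cells carried Ccr2, and 25.1% of YFP+ cells did so before thinning. In the Myh11 cluster this share was 11.6% (3.89–25.1) of 43 cells, an interval that holds both values. Free RNA of the YFP+ library held Ccr2 at 230 CPM, S100a4 at 155 CPM and S100a6 at 603 CPM, the last 2 above their levels in cells. With 10% of the free RNA profile subtracted in each library, the log2 ratios were 1.27 for Ccr2, 1.49 for S100a4 and 1.28 for S100a6. The other 4 higher genes were Retnla, at 1043 and 618 CPM, Ccl4, at 266 and 166 CPM, Dnajb1, at 95.4 and 63.3 CPM and just past the limit, and Hspa1b, at 151 and 75.3 CPM. Free RNA held Retnla at 1725 CPM, Ccl4 at 398 CPM and Dnajb1 at 127 CPM, each above its level in cells, and Hspa1b at 136 CPM. With free RNA subtracted, the log2 ratios were 0.89 for Retnla, 0.70 for Ccl4 and 0.99 for Hspa1b, and 0.51 for Dnajb1, which is under 1.5-fold.

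The 7 listed genes that were lower on summed UMIs made up 4.86% of the listed genes, near the 5.77% of all genes that were as far lower. They were Vcam1, Cyr61, Tcim and 4 genes that were high in the Cd209-high-like cluster. Retnla, which was also high in that cluster, went the other way (log2 ratio 0.75). Vcam1, an adhesion molecule, was at 31.1 CPM here and 60.0 CPM in the YFP- library, Cyr61 at 76.0 and 126 CPM, and Tcim at 28.9 and 52.9 CPM. Ccl8 (15.7 and 29.4 CPM), Ccl24 (177 and 285 CPM), Ednrb (40.8 and 65.8 CPM) and Clec10a (151 and 244 CPM) completed them. C1qa differed little, at 6101 and 6161 CPM (log2 ratio -0.01, -0.04–0.01), Csf1r was at 873 and 992 CPM (-0.18, -0.25 to -0.12) and Cd74 at 29333 and 22091 CPM (0.41, 0.40–0.42). All 7 MHC class II genes were higher in YFP+ cells by less than 1.5-fold, with a median log2 ratio of 0.34. Among all genes with a mean of at least 50 CPM, Notch2 came after S100a4, S100a6 and Ccr2, at 267 and 131 CPM, and the 5 lowest ratios belonged to the pseudogenes or predicted genes Gm6274, Gm6977, Gm6222, Rpl28-ps1 and Rpl7-ps7. Actb, which was higher in shallow cells, was at 10647 and 5354 CPM (log2 ratio 0.99, 0.96–1.02), beside the lower depth of the YFP+ library, whose part in this was not tested. From the lists of other cell types, Acta2 was at 48.3 and 2.07 CPM, Tagln at 43.6 and 4.14 CPM and Dcn at 33.2 and 10.8 CPM, and these are genes of the Myh11 cluster. Sort and library cannot be told apart here, since each sort is 1 library.

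**Figure D5:**
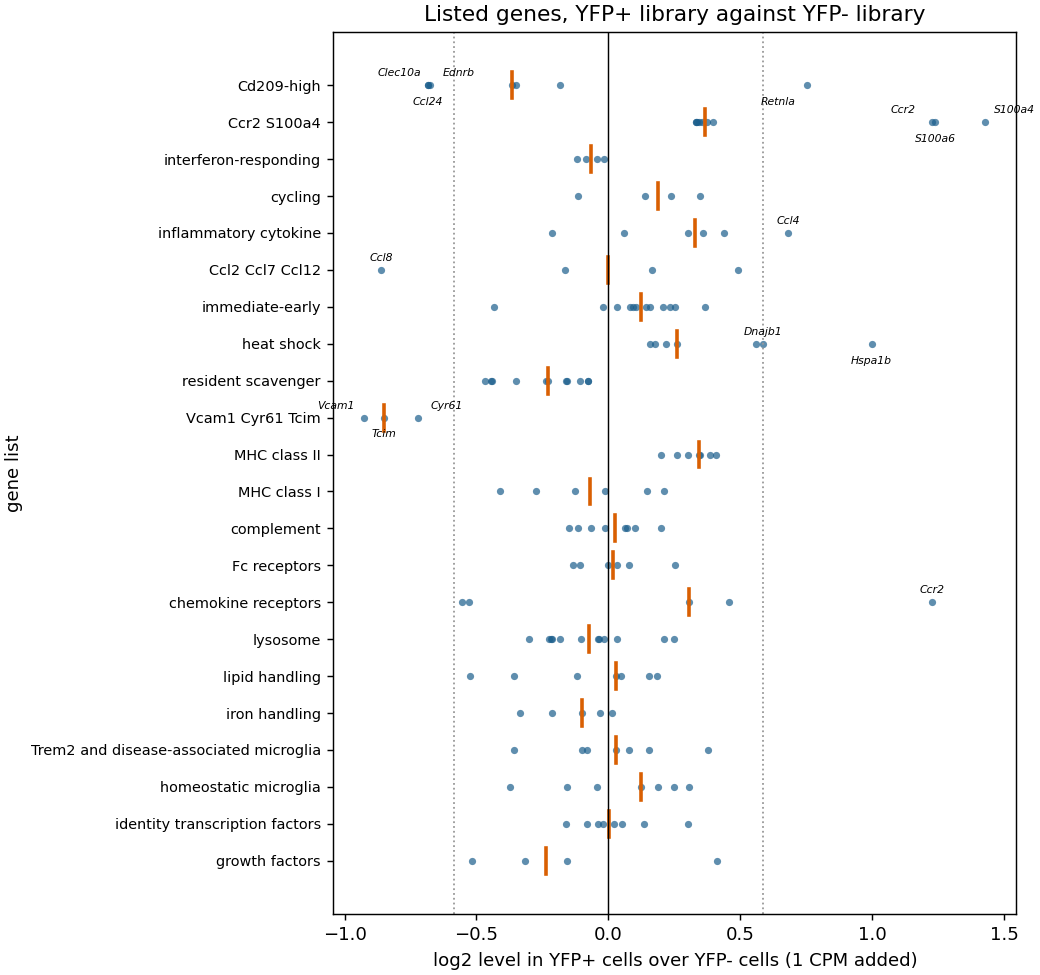
Log2 ratio of levels in YFP+ over YFP- cells (x axis, 1 CPM added) for each gene with a mean of at least 20 CPM (points) in the lists of macrophage states and programmes (rows), without the lists of other cell types, with orange bars at the medians and dotted lines at 1.5-fold. Of the genes drawn, S100a4, S100a6 and Ccr2 lay furthest to the right and Vcam1, Ccl8 and Tcim furthest to the left.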

How the data were processed

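The authors deposited unnormalized UMI counts for each barcode, made from 10x v2 libraries with GRCm38 as the genome build. The submitters' processing notes name Cell Ranger 3.0.2 and Seurat 2.2.0, and the study's methods name an earlier version of the first. No filter on cells had been applied, so empty droplets were included. Genes were matched by ID to GENCODE M21 (99.9% of 54838 IDs).

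Levels are CPM of UMIs summed over cells, with exact Poisson intervals. Log2 ratios add 1 CPM and have conditional exact binomial intervals. Shares have Clopper-Pearson intervals. A count of 0 allows 3 UMIs. Pearson residuals used a theta of 100 and genes seen in at least 20 cells. Cells were clustered with scanpy 1.11.5 and leidenalg 0.10.2 (2000 variable genes, 20 principal components, 20 neighbours, resolution 0.8, seed 0) under Python 3.11.15. Scrublet marked 0 cells, which does not tell whether it failed or found none, and any doublets were kept. A cluster name needed a mean log2 ratio of its markers of at least 0.5, at least 3 markers, and more markers than any other list among its 10 leading genes, limits set after a first look. Genes named are the listed genes, the 25 most abundant and most variable, the 8 leading genes of each cluster (at least 50 CPM, in at least 10% of cells) and the extremes of the ratios, with some others, such as the actin genes, chosen after their values were seen. The members and gene lists were chosen with earlier results of these data known. The scripts were tested on simulated data. Each group is 1 library, so no test between groups was made. Results for a few genes are not reported here.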

Additional observations from a re-analysis of the deposited data

How the results depend on the processing

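With a minimum of 1000 UMIs, 2869 cells remained. The share of UMIs in the 25 most abundant genes was 25.9% with equal weight for each cell and with 10% of free RNA subtracted, and 25.8% without the Myh11 cluster. The 25 most variable genes shared 5 with a ranking by coefficient of variation and 13 with a list made without the Myh11 cluster.

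Shares of the states depended on the clustering. The Ccr2 S100a4-like share was 7.80% at resolution 0.4, 11.3% at resolution 1.2, 17.2% from 50% of the UMIs, 19.3% with 10 principal components and 16.1% with seed 1. Clusters named for heat shock, immediate-early or inflammatory cytokine genes held 5.13%, 10.8%, 6.56% and 19.99% of cells at resolution 1.2, from 50% of the UMIs, with 10 principal components and with seed 1, and 24.7% with a minimum of 1000 UMIs. The mural cell list named 1.25% of cells with a minimum of 1000 UMIs and 0.790% with 10 principal components, where a further 54 cells formed a Schwann cell-like cluster. At resolution 1.2 a cluster with 83 of the 91 cells of the Myh11 cluster took no name. The Cd209-high-like share was 1.70% at resolution 0.4, 5.26% at resolution 1.2, 1.46% with a minimum of 1000 UMIs, 4.42% with 10 principal components and 18.5% with seed 1, where a cluster of 681 cells took the name at a mean log2 ratio of 0.51. The interferon-responding-like share was 4.91% with seed 1, and the cycling-like share was 2.16% with a minimum of 1000 UMIs. Listed genes at least 1.5-fold higher and lower in YFP+ cells numbered 7 and 11 with equal weight for each cell (2.04% and 6.58% of all genes), 6 and 9 with 10% of free RNA subtracted (1.67% and 6.30%), 6 and 8 without the Myh11 cluster (1.43% and 5.87%) and 6 and 7 with a minimum of 1000 UMIs (1.5% and 5.89%). Of 84 recomputed values, 51 stayed within the main value's interval or within 1.5 times the main count. These 84 leave out 5 cases in which a state was not named at all: the mural cell state at resolution 1.2, the state of cluster 5 at resolution 0.4, and the interferon-responding state at resolution 0.4, from 50% of the UMIs and with 10 principal components. No value whose interval left out 0 changed sign, and the log2 ratio of C1qa, whose interval held 0, went from -0.01 to 0.03 with a minimum of 1000 UMIs. The runs without the Myh11 cluster and with seed 1 were chosen after seeing the data. No paired analysis was possible because each sort is 1 library.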

Other observations

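Transcription factors that set macrophage identity were all detected in YFP+ cells. Maf, a factor of resident macrophages, was at 1296 CPM (1269–1323), Spi1, the master factor of the myeloid lineage, at 353 CPM (339–368), and Irf8 at 184 CPM (174–195). The 8 of 9 listed factors with a mean of at least 20 CPM had a median log2 ratio of 0.001 to YFP- cells, and none of them differed by 1.5-fold, where 1.54% of all genes were as far higher and 5.77% as far lower.

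Genes known from microglia were mixed. Cx3cr1, the fractalkine receptor, was at 337 CPM and Siglech at 114 CPM, whereas P2ry12, a purine receptor, was at 48.2 CPM, Tmem119 at 5.78 CPM and Sall1, the factor that fixes microglial identity, at 0. Trem2, a lipid-sensing receptor, was at 353 CPM (339–367). Among growth factors, Grn was at 475 CPM, Tgfb1 at 143 CPM and Igf1 at 94.8 CPM, and Gas6, which bridges dying cells to their receptors, was at 416 CPM. Igf1 was at 136 CPM in YFP- cells (log2 ratio -0.52, -0.71 to -0.32).

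The YFP- library clustered on its own gave 7 clusters. They included a Ccr2 S100a4-like cluster of 246 of the 1045 cells, where that of the YFP+ library held 556 of 4053 cells. The leading genes of this YFP- cluster were, in order, Mbp, Cd9, Ccr2, S100a6, Cnp, Anxa2, Tle1 and Pmp22, so myelin genes stood beside those of its name. There were also an immediate-early cluster of 209 cells, a Cd209-high cluster of 57 cells and a cycling cluster of 12 cells. A cluster of 46 cells was led by Cxcl2 and Hspa1a, and none was led by interferon-responding genes or Myh11. With 1045 cells a small state need not form a cluster, so this does not show that such cells were absent. The interferon-responding list summed to 896 CPM in YFP- cells and 906 CPM in YFP+ cells, and the mural cell list to 9.93 and 114 CPM.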
